A study of Drosophila pseudoobscura and Drosophila ananassae and Drosophila yakuba with 13 samples.

Results

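Gene expression was compared between testis and ovary of Drosophila ananassae, a fruit fly of the melanogaster group, across all 11576 genes of the authors' deposited table for this species, out of 23522 gene rows in the tables of the series. All flies were wild type, of stock 14024-0371.13 of the Drosophila Species Stock Center, free of the bacterium Wolbachia, virgin, grown at 25 °C and dissected at an age of 6 to 10 days. The labels give 2 testis and 2 ovary libraries of polyadenylated RNA, read as single reads of 50 bases, from gonads freed of their ducts. The series holds 13 libraries in all, and those of other species are not described here. Each gene has 1 log2 fold change, 1 average expression and 1 edgeR likelihood-ratio test in the authors' deposited table, with 0 columns per library, so depth is unknown and the agreement of replicates cannot be seen gene by gene. The labels do not say whether the libraries of a tissue came from separate animals, so the spread between them that enters the p-values may be technical. Among well expressed genes of small fold, the error behind the p-values was nearly the same from gene to gene, as described further on. They name GAIIx or HiSeq2000 sequencers without saying which library ran on which, so the part of the sequencer in the results was not tested.

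The Drosophila testis is filled with germ cells in successive stages, from dividing spermatogonia through spermatocytes, which transcribe many genes used nowhere else, to elongating sperm. In the ovary, nurse cells synthesise RNA and protein that are loaded into the oocyte for the early embryo, and follicle cells around them make the eggshell. Whole gonads hold all of these cells together, so fewer cells of a type and less RNA per cell cannot be told apart in the values below.

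The header names no direction, and a positive fold is taken to mean more in testis because the table's title puts testis first. The direction was checked on TrxT, a thioredoxin of the testis in D. melanogaster, and nos, a posterior determinant supplied by the ovary. With positive taken as testis, the authors' deposited table has TrxT higher in testis and nos higher in ovary, and for these genes the direction is therefore no separate result. Of the 7 lists of marker genes, 3 had a measured member under the listed symbols: TrxT for testis germline, nos for ovary and the maltase gene Mal-A5 for gut. Markers of accessory gland (0 of 9), muscle (0 of 12), fat body (0 of 8) and haemolymph (0 of 10) had none under those symbols, so the part of those tissues in the results was not tested.

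Testis and ovary differed across most of the transcriptome. Of the 11576 genes, 85.4% passed an adjusted p of 0.05 in the authors' deposited table, 31.7% with higher expression in testis (testis-biased, 3664 genes) and 53.8% with higher expression in ovary (ovary-biased, 6226 genes). The authors' deposited table had 2412 testis-biased against 2722 ovary-biased genes beyond 3 on the log2 scale. Beyond 4 there were 2183 against 1660, and beyond 10 there were 419 against 50. These testis counts include a band of 664 genes, 520 of them called, whose folds rest on an estimated ovary level close to 0 and which is described further on. Without the band the counts were 1663 against 1660 beyond 4, 1449 against 936 beyond 5, 576 against 169 beyond 8 and 62 against 50 beyond 10. Beyond 11 there were 17 against 35, or 304 against 35 with the band. Leaving out the band trims the testis side only. The 136 ovary-biased genes with an estimated log2 testis level under -6, described further on, stay in the ovary counts. Counts without the band therefore do not treat both directions alike. Relative to the median gene, which stood at -0.93, there were 3312 testis-biased against 2822 ovary-biased genes beyond 2, or 2792 against 2822 without the band. The normalization behind these folds is not given in the sources used here.

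Sizes of bias formed a different shape in each direction. Among ovary-biased genes the counts per 0.5 log2 unit had a single high point, 784 genes between -1.5 and -1, with 764 in the next step and 495 between -4 and -3.5 in the authors' deposited table. On the testis side, leaving out the band, there were 312 genes between 0.5 and 1, a low of 88 genes between 5 and 5.5, and a second rise to 186 genes between 7 and 7.5 in the authors' deposited table. Counts of testis-biased genes thus had a high point at small folds and another at large folds. All of these counts hold called genes only. No gene with an absolute log2 fold change under 0.52 was called, and 1441 genes under 1 were not called. The high points at small folds therefore depend on the threshold for a call.

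**Figure D1:**
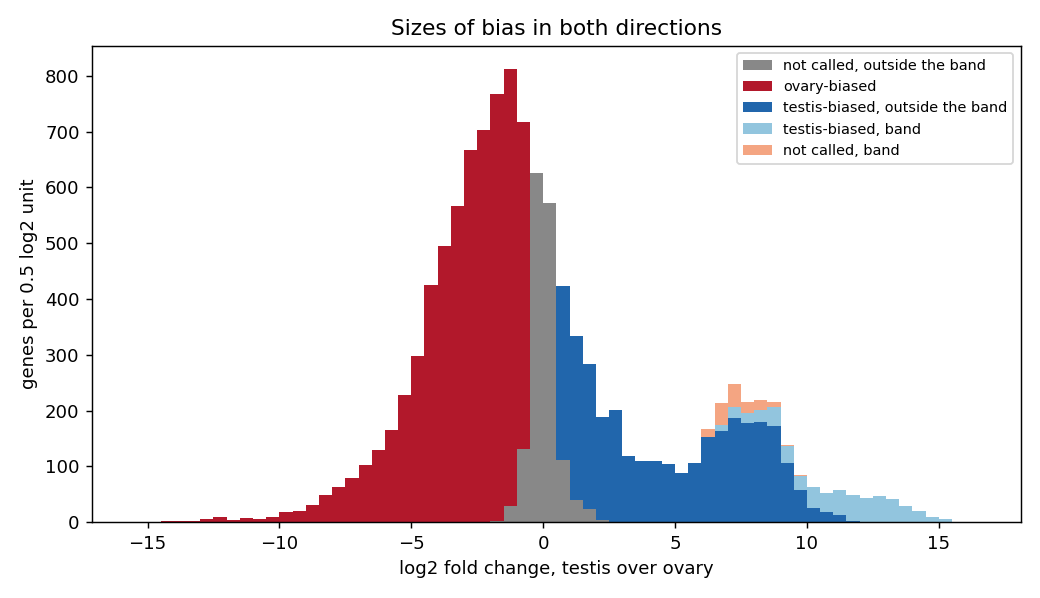
Number of genes per 0.5 log2 unit of fold change (testis over ovary), stacked by call, with the 664 genes of the separate band in light blue (called) and orange (not called). Among called genes outside the band, the ovary side has 1 peak between -1.5 and -1. The testis side has a second rise between 7 and 7.5 after a low between 5 and 5.5.

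In the 664 genes of the band, the fold towards testis grew by 1.08 log2 units for each log2 unit of average expression. A slope near 1 follows largely from how the band was defined, by an estimated log2 ovary level under -6. Testis and ovary levels were estimated for each gene from its fold and its average, taking the average as the plain mean of both tissues. These levels are in parts of the rescaled total of 1000000, and they count reads without a correction for gene length. In this band the estimated log2 ovary level ran from -9.18 to -6.86 with a median of -7.47, and the nearest gene outside it stood at -5.83. The fold of a band gene was therefore set by its testis level over a nearly constant ovary level close to 0, and it is not a bound on the difference. Band genes were 661 known by identifier, the snoRNA genes snoRNA:GF26162 and snoRNA:GF26076, and the maltase gene Mal-B1. Of the 664, 520 were called testis-biased, which is 14.2% of all testis-biased genes, and 144 were not called in the authors' deposited table. At an unadjusted p under 0.05 the called ones would number 524. Those called had a median log2 average of 2.68 and those not called one of -0.86.

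The ovary side differed. An estimated log2 testis level under -6 was found for 136 genes, all of them called ovary-biased. Their lowest likelihood-ratio statistic was 34.0, against 0.33 for the lowest of the band. Whether a gap in testis level set them apart from other genes was not measured. Every uncalled gene with an absolute log2 fold change over 3, 144 of 144, belonged to the band in the authors' deposited table. Outside the band the largest absolute fold that was not called was 2.13. Without the band, the middle of the 3144 testis-biased genes lay at 4.36 on the log2 scale of the authors' deposited table, with quartiles of 1.82 and 7.40, against 5.72 with it.

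**Figure D2:**
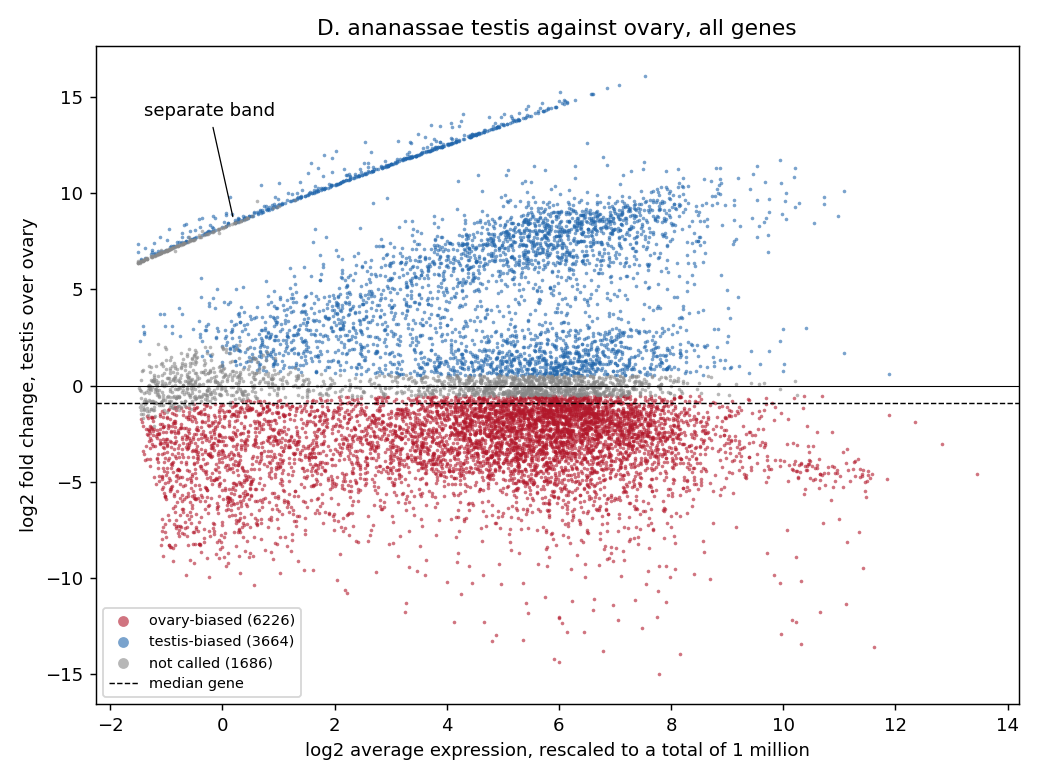
Log2 fold change (testis over ovary) against log2 average expression, rescaled to a total of 1000000, with 1 point per gene coloured by call and the median gene as a dashed line. The separate band of 664 genes runs along the upper left with a slope of 1.08, and its low end is not called.

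The error that the deposited test gave to a fold varied with average expression. With 2 libraries per tissue, the error of a fold was derived as its absolute size divided by the square root of the likelihood-ratio statistic. For 1017 genes with an absolute log2 fold change of 0.2 to 1 and a log2 average of at least 5, this implied error had a median of 0.26 and ran only from 0.255 to 0.265. The error was thus nearly the same for each of these 1017 genes, and their deposited p-values followed the size of the fold. The p-values of these genes therefore do not show how well the libraries agreed for a single gene. The genes were split by average expression into 10 bins of 1157 or 1158 genes. In the lowest bin the median implied error was 0.75, in the next 0.38 and in the highest 0.26. Of genes with an absolute log2 fold change of 1 to 2, 54.5% were called in the lowest bin, 92.6% in the next and 100% in each of the others in the authors' deposited table. The smallest fold called was 0.95 in the lowest bin and 0.52 in the highest.

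On the deposited scale, ovary-biased genes were the larger called group in every bin of expression. They made up 47.8% of the lowest bin, 52.4% of the second, 49.7% of the third, 51.0% of the fourth, 53.0% of the fifth and 62.6% of the highest bin in the authors' deposited table. Among called genes alone, their share was 82.1% in the lowest bin, 53.4% in the third and 66.3% in the highest. The median fold of all genes was -1.04 in the lowest bin, -1.08 in the second, -0.52 in the third and -1.71 in the highest. Testis-biased genes made up 10.4% of the lowest bin, 43.4% of the third and 31.0% to 33.1% of each bin from the fifth upwards. In the lowest bin 41.7% of genes were not called, 483 genes of which 124 were in the band. The median fold of testis-biased genes was 7.15 in the lowest bin, which holds 200 band genes, 3.26 in the second and 7.32 in the highest, and that of ovary-biased genes went from -3.57 to -2.13 in the eighth bin before reaching -3.06 in the highest.

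**Figure D3:**
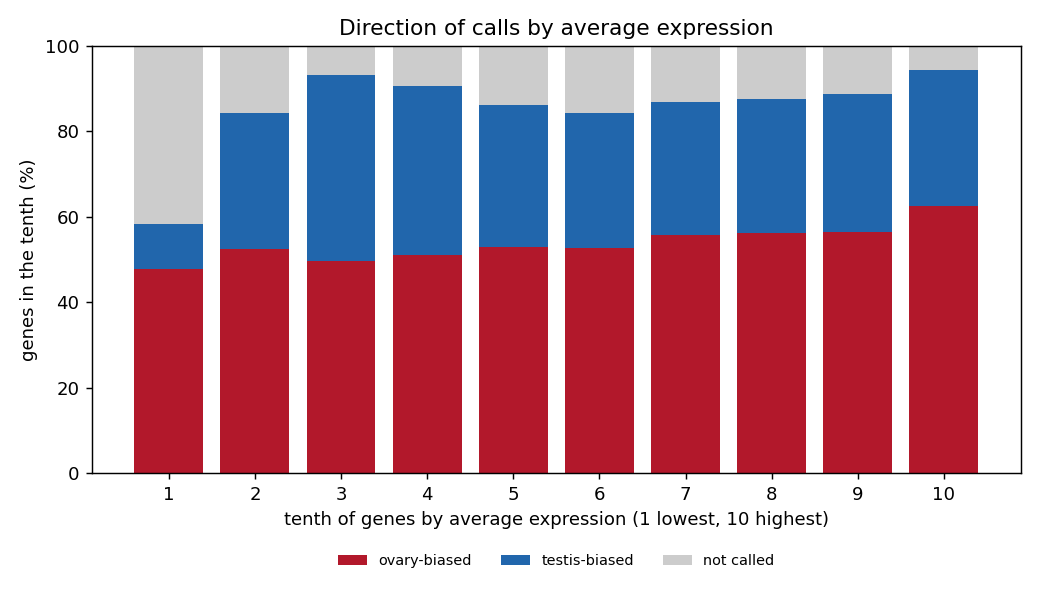
Percent of genes called ovary-biased, testis-biased or not called in each of 10 bins of genes by average expression (x axis, 1 lowest to 10 highest), 1157 or 1158 genes per bar. The ovary-biased share is 47.8% in the lowest and 62.6% in the highest bin, and the testis-biased share is highest, at 43.4%, in the third.

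Most of the estimated total of each gonad came from genes biased towards it. Testis-biased genes made up 67.2% of the estimated testis total and 4.26% of the ovary total. Ovary-biased genes made up 89.9% of the ovary total and 22.9% of the testis total, and the 1686 uncalled genes 5.83% and 9.89%. Since these shares come from the same folds that gave the calls, they are a description. The ovary total rested on fewer genes: 381 genes held 50% of it, against 736 genes for testis. The 100 genes of highest estimated level held 30.7% of the ovary total and 19.1% of the testis total. Of the ovary's 100, 99 were ovary-biased, and of the testis's 100, 86 were testis-biased, 8 ovary-biased and 6 not called, with 5 genes on both lists. None of these genes carries a symbol, and the files do not pair the identifiers with names.

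The estimated totals of the tissues were unequal, 735474 for testis and 1264526 for ovary. The part of library depth in this difference was not tested. Folds scaled to equal totals would all be 0.78 higher on the log2 scale, and the median gene would move from -0.93 to -0.14. With the authors' adjusted p and at least 2-fold after this shift, 3664 testis-biased and 4415 ovary-biased genes would remain. Testis-biased genes would be 45.4% of both, against 37.3% on the deposited scale with at least 2-fold. Relative to the median gene the share would be 46.6%. The count of 3664 was fixed in advance, because the smallest testis-biased fold, 0.53, passes 2-fold after either shift. With the deposited calls kept, no uncalled gene could join, and ovary-biased genes could only drop out. The shares of 45.4% and 46.6% are therefore not estimates for those scalings. Of all genes, 39.4% had a fold above 0 as deposited and 48.2% with equal totals.

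Genes known only by an identifier, GF and digits, were 11366 of the rows, and 32.1% of them were testis-biased and 53.2% ovary-biased, close to the whole table, of which they are nearly all. The largest folds towards testis among those with a log2 average of at least 5 were 16.1 for GF17233 and 15.6 for GF15813 in the authors' deposited table, and both genes were in the band. The estimated level of GF17233 was 370 in testis and 0.00527 in ovary. Towards ovary the largest were -15.0 for GF20786 and -14.4 for GF15930 in the authors' deposited table. The estimated level of GF20786 was 0.0132 in testis and 439 in ovary, and that of GF15930 was 0.00612 and 129. Both genes had an estimated log2 testis level under -6, so these folds also rest on a level close to 0.

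Genes with a symbol, small and ribosomal RNA apart, numbered 59, and 13 were testis-biased, 38 ovary-biased and 8 not called in the authors' deposited table. Their ovary-biased share was 64.4% beside 53.8% of all genes, and their testis-biased share 22.0% beside 31.7%. Their median log2 fold change was -1.99. They were sorted by role after their values were known, so that counts by role are descriptions. Of 219 symbols on the 16 pathway lists 21 were measured, and the lists for chorion, vitelline membrane, yolk, sperm chromatin, sperm tail, meiotic arrest and mitochondrial energy had no measured member under the listed symbols.

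**Figure D4:**
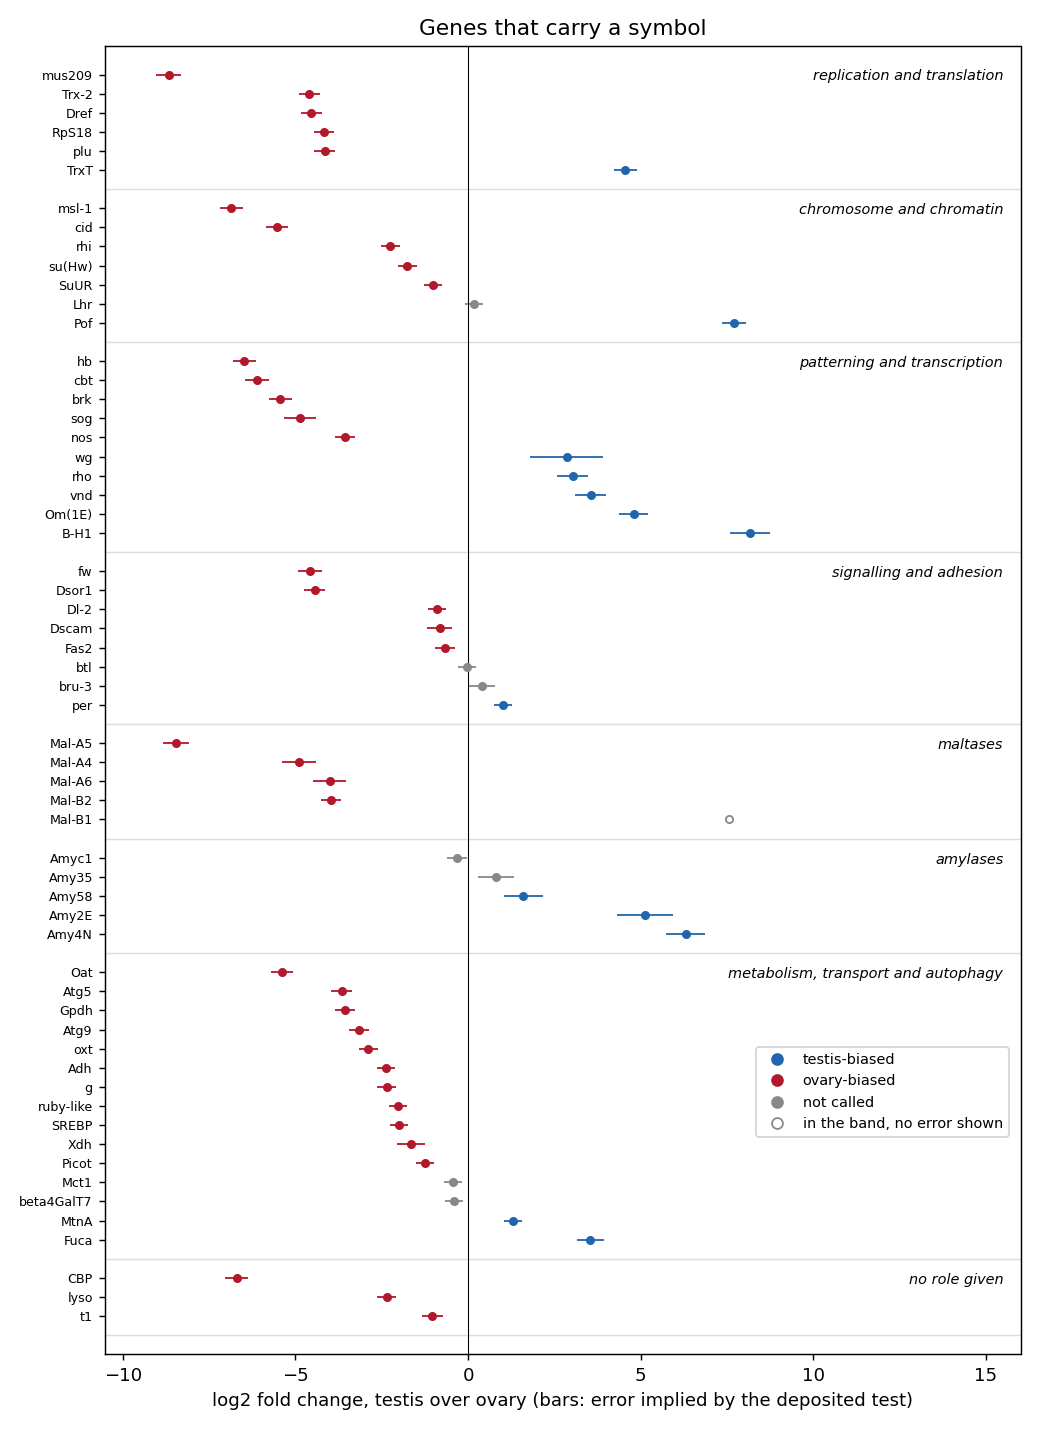
Log2 fold change (testis over ovary) of the 59 genes with a symbol, by role, with bars of 1 implied error on each side and colour by call. Chromatin and replication genes lie mostly on the ovary side, patterning genes split 5 against 5, and amylases lie at or above -0.32.

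Replication, translation and thioredoxin genes were ovary-biased in 5 of 6 cases (83.3%, beside 53.8% of all genes). The largest ovary bias of all symbols was that of mus209, for PCNA, the ring that holds DNA polymerase on its template, at -8.66 with an implied error of 0.36 in the authors' deposited table. Its estimated level was 769 in ovary and 1.90 in testis. Dref, a transcription factor that binds promoters of replication genes, stood at -4.53, and plu, which acts in the rapid nuclear cycles of the early embryo, at -4.15 in the authors' deposited table. RpS18, a protein of the small ribosomal subunit, stood at -4.18 in the authors' deposited table, with an estimated level of 1598 in ovary and 88.2 in testis. Its average was the highest of all symbols and ranked 152 in the table by reads.

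The thioredoxins, small proteins that reduce disulfide bonds, split by tissue. Trx-2, the general form, had a log2 fold change of -4.59 and TrxT one of 4.56 in the authors' deposited table, with implied errors of 0.30 and 0.33. The levels of Trx-2 were estimated as 325 in ovary and 13.5 in testis. For TrxT they were 180 in testis and 7.67 in ovary. The members of this paragraph and the one before kept their side under every scaling tried.

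Among chromosome and chromatin genes 5 of 7 were ovary-biased (71.4%, beside 53.8% of all genes). Pof, whose product coats the fourth chromosome in D. melanogaster, lay on the testis side, at 7.70 with an implied error of 0.34 in the authors' deposited table. Its estimated level was 715 in testis and 3.45 in ovary, and its fold was larger than those of 67.9% of testis-biased genes. In contrast msl-1, a scaffold of the complex that raises X transcription in males, stood at -6.86 in the authors' deposited table, beyond 94.5% of ovary-biased genes. The histone variant of centromeres, cid, stood at -5.53, and rhi, the germline protein that marks piRNA source loci, at -2.25 in the authors' deposited table. The insulator protein gene su(Hw) and SuUR, whose product slows replication of heterochromatin, had smaller folds of -1.75 and -1.02 in the authors' deposited table. Lhr, a heterochromatin protein gene known from hybrid lethality, had a fold of 0.17 and was not called in the edgeR test of the authors' deposited table (adjusted p 0.547). SuUR is lost under Bonferroni adjustment, and relative to the median gene its value was -0.09 and that of su(Hw) -0.83.

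Patterning and transcription genes split evenly, 5 ovary-biased and 5 testis-biased (50% each, beside 53.8% and 31.7% of all genes). On the ovary side were hb, a transcription factor of the embryo's anterior, at -6.48, and cbt, a zinc finger transcription factor, at -6.11 in the authors' deposited table. There too were brk, a repressor of Dpp target genes, at -5.43, sog, an extracellular antagonist of Dpp, at -4.87, and nos, a translational repressor, at -3.56 in the authors' deposited table. Estimated levels in ovary and testis were 204 and 2.28 for hb and 426 and 36.0 for nos. For sog both were low, 1.25 and 0.0428. These 5 are also the measured members of the maternal patterning list of 32 symbols, which was put together with their values known. Of them, brk and sog are also on the list for somatic gonad and signalling. The list's name therefore does not show a maternal role for each member.

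On the testis side were homeobox genes and signalling genes with low averages. B-H1, a homeobox gene of the Bar locus, had the largest fold of the 59 symbols towards testis, 8.16 with an implied error of 0.58 in the authors' deposited table. Its estimated level was only 6.27 in testis, against 0.0219 in ovary. Om(1E), a locus named for eye mutants of D. ananassae, stood at 4.80, and vnd, a homeobox gene of the neuroectoderm, at 3.55 in the authors' deposited table. The gene rho, for a protease that releases EGF receptor ligands, stood at 3.04, and wg, for a Wnt ligand, at 2.85 in the authors' deposited table. The fold of wg had an implied error of 1.06 in the edgeR test of the authors' deposited table (adjusted p 0.0084), and its call is lost under Bonferroni adjustment. Log2 averages of these 5 genes ran from 0.35 to 3.11, below the median of 5.05 over all genes.

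Signalling and adhesion genes, grouped with the clock gene per and the RNA-binding protein gene bru-3 to 8 in number, had mostly small folds. Larger ones were those of fw, a cell surface protein of the selectin type, at -4.58, and Dsor1, the kinase that activates MAP kinase, at -4.44 in the authors' deposited table. The adhesion genes Dscam at -0.83 and Fas2 at -0.67, and Dl-2 at -0.89, were called ovary-biased in the authors' deposited table, but stood at 0.10, 0.25 and 0.04 relative to the median gene. With equal estimated totals Fas2 stood at 0.11, Dscam at -0.04 and Dl-2 at -0.11. The circadian clock gene per stood on the testis side at 1.00 in the authors' deposited table (adjusted p 0.000189 in the edgeR test), with estimated levels of 36.3 in testis and 18.1 in ovary. The FGF receptor gene btl was not called at -0.03, nor was the RNA-binding protein gene bru-3 at 0.41, with adjusted p of 0.920 and 0.312 in the edgeR test of the authors' deposited table. Under Bonferroni adjustment Dscam, Fas2, Dl-2 and per are lost as well.

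Maltases and amylases, enzymes of sugar and starch digestion, had their calls on opposite sides. Of the 5 maltases, which split maltose, 4 were ovary-biased (80%, beside 53.8% of all genes). These were Mal-A5 at -8.45, Mal-A4 at -4.89, Mal-A6 at -4.01 and Mal-B2 at -3.96 in the authors' deposited table. Mal-A5 had an estimated level of 257 in ovary and 0.733 in testis, and Mal-B2 one of 65.2 and 4.18. Levels of Mal-A4 and Mal-A6 in ovary were low, 1.75 and 1.33. Mal-B1 lay in the band, with a fold of 7.55, an estimated testis level of 1.34, and was not called in the edgeR test of the authors' deposited table (adjusted p 0.359).

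Of the 5 amylases, which cleave starch, 3 were testis-biased (60%, beside 31.7% of all genes). These were Amy4N at 6.30, Amy2E at 5.12 and Amy58 at 1.60 in the authors' deposited table. Amy35 at 0.82 and Amyc1 at -0.32 were not called, with adjusted p of 0.131 and 0.301 in the edgeR test of the authors' deposited table, and relative to the median gene Amyc1 stood at 0.61. Estimated testis levels of the 5 were between 2.40 and 6.85. Copies of a family can share reads, so single maltase and amylase values are uncertain, and the call of Amy58 is lost under Bonferroni adjustment.

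Genes of metabolism, transport and autophagy were ovary-biased in 11 of 15 cases (73.3%, beside 53.8% of all genes). The largest fold was that of Oat, an ornithine aminotransferase, at -5.39 in the authors' deposited table. The autophagy genes Atg5, of the conjugation machinery, and Atg9, a membrane protein, stood at -3.66 and -3.15 in the authors' deposited table. Gpdh, for glycerol-3-phosphate dehydrogenase, stood at -3.56, the xylosyltransferase gene oxt at -2.90 and the alcohol dehydrogenase gene Adh at -2.37 in the authors' deposited table. The gene g, for a subunit of the AP-3 adaptor of vesicle traffic, stood at -2.36, ruby-like at -2.03 and SREBP, a regulator of lipid synthesis, at -1.99 in the authors' deposited table.

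Smaller folds were those of Xdh, for xanthine dehydrogenase, at -1.66, and the phosphate cotransporter gene Picot at -1.25 in the authors' deposited table. The monocarboxylate transporter gene Mct1 at -0.44 and the galactosyltransferase gene beta4GalT7 at -0.40 were not called, with adjusted p of 0.100 and 0.143 in the edgeR test of the authors' deposited table. On the testis side were Fuca, an alpha-L-fucosidase, at 3.54, and the metallothionein gene MtnA, which binds metal ions, at 1.30 in the authors' deposited table. MtnA had estimated levels of 25.8 in testis and 10.5 in ovary. Xdh is lost under Bonferroni adjustment, and relative to the median gene Mct1 stood at 0.48, beta4GalT7 at 0.53 and Picot at -0.32. CBP at -6.70, lyso at -2.36 and t1 at -1.03, for which no role is given here, were also called towards ovary in the authors' deposited table. Under Bonferroni adjustment t1 is lost, and relative to the median gene it stood at -0.11.

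Small and ribosomal RNA genes made up 151 rows, and 145 of them (96.0%) were ovary-biased, beside 53.8% of all genes. Their median log2 fold change was -5.67 in the authors' deposited table, beside -0.93 over all genes. The row at this median, 5.8SrRNA:GF25429, had low estimated levels of 0.051 in testis and 2.58 in ovary. Except for 18S ribosomal RNA, all averages were low, from -1.42 to 2.83 on the rescaled log2 scale. The labels state that polyadenylated RNA was selected, and the part of that selection in these values was not tested. Near-identical copies can share reads, so members are not independent.

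Small nucleolar RNA genes, whose products guide chemical modification of ribosomal RNA, showed the widest range. Of 76, 73 were ovary-biased, 2 testis-biased and 1 not called in the authors' deposited table. Folds of the ovary-biased ones reached -8.95 for snoRNA:GF26098 and -8.94 for snoRNA:GF26121 in the authors' deposited table. Estimated testis levels of snoRNA:GF26098 and snoRNA:GF26121 were 0.0039 and 0.0034, so the size of these folds rests on a level close to 0. The uncalled one, snoRNA:GF26107, stood at -1.19 in the edgeR test of the authors' deposited table (adjusted p 0.0519). Both testis-biased ones lay in the band, snoRNA:GF26162 at 10.9 and snoRNA:GF26076 at 9.20 in the authors' deposited table. Their likelihood-ratio statistics were 20.3 and 8.02, against 121 for snoRNA:GF26098, and both calls are lost under Bonferroni adjustment. The estimated testis level of snoRNA:GF26162 was 10.8.

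All 46 rows of 5.8S ribosomal RNA, a component of the large ribosomal subunit, were ovary-biased, from -8.44 for 5.8SrRNA:GF25437 and -7.49 for 5.8SrRNA:GF25330 to -3.72 for 5.8SrRNA:GF25436 in the authors' deposited table. Estimated testis levels of 5.8SrRNA:GF25437 and 5.8SrRNA:GF25330 were 0.0031 and 0.0135, so the size of their folds rests on a level close to 0. That of 5.8SrRNA:GF25436 was 0.146. Averages of the 46 rows spanned only -0.89 to 0.60. The single 18S ribosomal RNA row, 18SrRNA:GF26229, of the small subunit, went the other way at 2.26 with an implied error of 0.27 in the authors' deposited table. It was far more abundant, with a log2 average of 8.30 and estimated levels of 523 in testis and 109 in ovary.

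The 21 rows of spliceosomal small nuclear RNA, which recognise splice sites, were ovary-biased as well. The largest folds were those of snRNA:U1:5 at -6.92 and snRNA:U1:4 at -4.91 in the authors' deposited table, with estimated testis levels of 0.0109 and 0.0558. By class, medians were -4.15 for 9 rows of U1, -3.86 for 7 of U2, -2.96 for 2 of U11 and -1.61 for 2 of U6 in the authors' deposited table, and the 1 row of U12 stood at -3.27. The smallest folds were those of snRNA:U6:2 at -1.51, of the catalytic core of the spliceosome, and snRNA:U2:1 at -1.68 in the authors' deposited table. Calls of U6 rows and snRNA:U2:1 are lost under Bonferroni adjustment.

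Of 5 rows of transfer RNA marked Psi, 3 were ovary-biased, the largest being tRNA:GF25884:Psi at -3.57 and tRNA:GF25929:Psi at -3.39 in the authors' deposited table. Not called were tRNA:GF25908:Psi at -1.67 and tRNA:GF25867:Psi at -0.73, with adjusted p of 0.199 and 0.544 in the edgeR test of the authors' deposited table, and relative to the median gene the latter stood at 0.19. RNaseP:RNA:GF25395, the RNA of the enzyme that trims transfer RNA, stood at -4.95, and the microRNA gene mir-278 at -1.47 in the authors' deposited table. The call of mir-278 is lost at an adjusted p under 0.01.

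**Figure D5:**
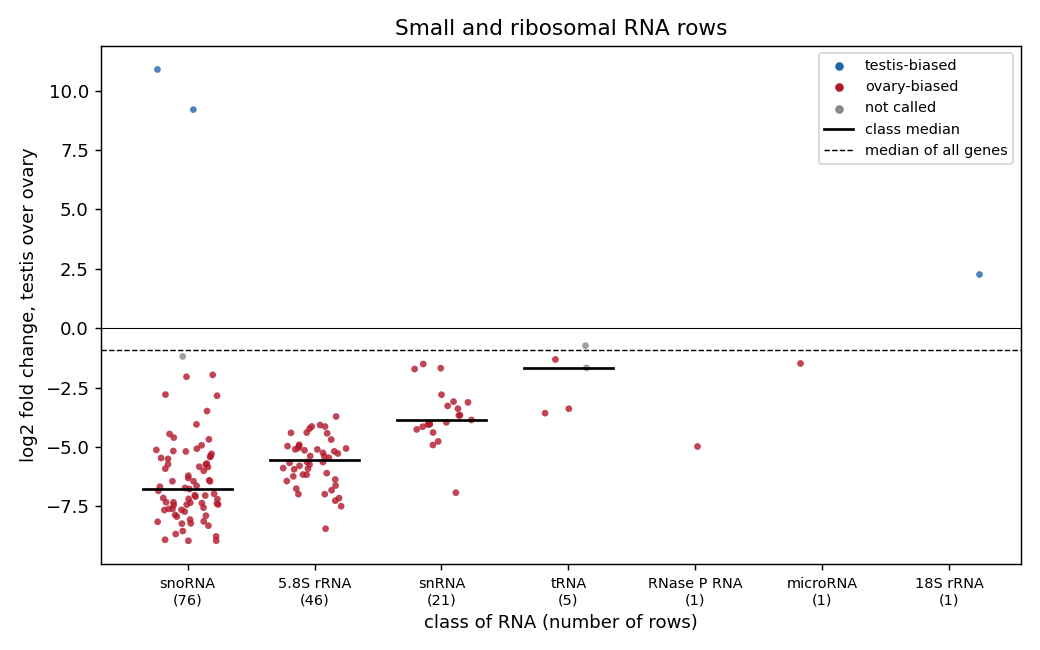
Log2 fold change (testis over ovary) of the 151 small and ribosomal RNA rows by class, 1 point per row coloured by call, with class medians and the median of all genes (dashed). All but 3 testis-biased and 3 uncalled rows are ovary-biased, and the 18S ribosomal RNA row is at 2.26.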

How the data were processed

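Tissues and libraries were as given above. Tools named in the submitters' processing notes are edgeR, Bowtie2 (2.1.0), HTSeq (0.5.4p3), and Cufflinks with Cuffdiff (both 2.1.0). Neither the genome build nor the annotation, count filter, normalization or depth was found in the labels or headers (not given in the sources used here), so no counting interval was computed.

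Per the file headers, the authors deposited for each gene a fold change and an average, both as log2 values. They also deposited a likelihood-ratio score with its p-value and false discovery rate. The deposited p-value equalled the chi-square tail of the score (1 degree of freedom) within 0.49%. The false discovery rate, called adjusted p, equalled the Benjamini-Hochberg value within 0.81%. A threshold of 0.05 was used. Linear averages summed to 6686862 times 1000000 and were rescaled to a sum of 1000000. Whether the deposited folds were corrected for library depth is not given in the sources used here. Levels and implied errors were derived as described, and the derivation was tested on simulated data. There the average was the plain mean of both tissues by construction, and true folds were smaller than those of the band. The test therefore cannot show whether the levels hold for the deposited averages or for band genes. A gene is in the band if its estimated log2 ovary level is under -6.

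Members, lists, roles, the band and rules for named genes were chosen with earlier results of these data known. Named are every symbol, the extremes of each RNA class with every RNA row not called ovary-biased, and the 2 identifiers of largest fold per direction with a log2 average of at least 5. Alternatives were other thresholds, fold and expression minimums, scalings, bins, and tables without RNA classes or the band. Software was Python (3.11.15) with numpy (2.4.6), pandas (2.3.3), scipy (1.17.1) and, for plots, matplotlib (3.10.9).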

Additional observations from a re-analysis of the deposited data

How the results depend on the processing

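No paired analysis was possible because the values are not given per library, and for the same reason no library could be left out. Testis-biased genes numbered 2799 to 3664 under stricter thresholds, fold minimums of 2 and 4, both scalings, an expression minimum of 2 and without RNA classes or the band, and 1858 with a log2 average of at least 5. Ovary-biased genes numbered 4203 to 6226 under the same alternatives except at least 4-fold, which left 4092 (3924 among identifiers), and 3328 remained with an average of at least 5. These filters leave fewer genes by construction. Scaled counts keep the p-values of the unscaled test, so under both scalings the testis-biased count of 3664 could not change. In bins of 1 log2 unit with at least 100 genes the ovary-biased share ran from 34.8% to 66.9%, against 47.8% to 62.6% over 10 equal bins. The scaling to equal totals and the omission of the band were chosen after the data were seen. Centring on the median gene turned the sign of Amyc1 (0.61), Mct1 (0.48), beta4GalT7 (0.53), Dl-2 (0.038), Dscam (0.10), Fas2 (0.25), btl (0.90) and tRNA:GF25867:Psi (0.19), and equal totals that of Amyc1 (0.47), Mct1 (0.34), beta4GalT7 (0.38), Fas2 (0.11), btl (0.75) and tRNA:GF25867:Psi (0.0496). Bonferroni adjustment removed the calls of 9 of 51 called symbols.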

Other observations

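Genes of the very highest average expression clustered in a narrow range of ovary bias, which was noticed in the plot of folds by expression. Of 126 genes with a log2 average of at least 10, 108 were ovary-biased, 16 testis-biased and 2 not called. Of the 126, 72 (57.1%) had a log2 fold change between -5.5 and -3.5, beside 12.5% of all genes. RpS18, with an average of 9.72 and a fold of -4.18 in the authors' deposited table, lies just below that minimum of expression. It has rank 152 by average, the highest of any gene with a symbol.

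The test statistic was not symmetric between directions at large folds. At a log2 average of 5 to 6 with folds of 3 to 4 in absolute log2 value, the median likelihood-ratio statistic was 138 for 18 genes towards testis and 143 for 192 genes towards ovary. At an absolute fold of 7 to 8 it was 236 for 112 genes towards testis, ranging from 116 to 354, and 415 for 11 genes towards ovary, ranging from 368 to 444. In the band the statistic was lower still: at an average of 3 to 4 its median was 66.5 for 97 band genes with a median fold of 12.1, against 121 for 131 other genes beyond 5 towards testis and 253 for 52 genes beyond -5 towards ovary. Of all genes with a fold above 5 towards testis, 314 had a statistic under 30, all of them in the band, and 0 genes below -5 did.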
